A study of Mus musculus with 6 samples.

Results

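Heat shock proteins and DnaJ cochaperones were followed as one gene family in ligated, thrombus-containing inferior vena cava of mice. Members were all genes whose symbol begins with Hspa, Hspb, Hspd, Hspe, Hsph or Hsp90, or with Dnaja, Dnajb or Dnajc and a digit. The rule found 71 of the 16533 genes in the count tables, 67 protein coding and 4 pseudogenes. It also takes in 3 genes that are not heat shock proteins by function: Hspb11, a part of the transport machinery of cilia, and Hspbp1 and Hspbap1, which are named after the chaperones they bind. The study asks how expression in the thrombosed vein differs when myeloid cells lack STING, the adaptor that relays the sensing of cytosolic DNA. Tissue was taken 24 h after ligation of the vein in the deep vein thrombosis model. Control mice were Stingf/f, carrying Sting1 flanked by loxP sites, with no Cre in their genotype label, and their sample titles call them WT. Mice of the mKO group were Stingf/f Lyzm-Cre+/-. They had the same floxed Sting1 and 1 copy of a Cre recombinase that is expressed from the Lyz2 locus in neutrophils, monocytes and macrophages. Each group had 3 samples, and each sample pooled 3 thrombi, so p-values measure the spread between pools of animals. Every sample mixes vessel wall with blood cells, so fewer cells of a type and less RNA per cell cannot be told apart in any value below. Age and sex of the mice were not given in the sources used here.

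HSP70 proteins hold unfolded stretches of other proteins in a cycle of ATP hydrolysis. J proteins (DNAJA, DNAJB and DNAJC) bring them clients and start hydrolysis, and exchange factors such as the HSP110 proteins release the client again. HSP90 proteins mature kinases and steroid receptors, the HSP60 and HSP10 chaperonin folds proteins inside mitochondria, and the small heat shock proteins (HSPB) bind partly unfolded proteins without ATP. The transcription factor HSF1 induces many of them under heat or protein damage by binding heat shock elements, which are inverted repeats of GAA. In blood vessels several HSPB proteins are abundant in smooth muscle, where they associate with actin filaments and desmin.

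The promoters of 3 members are shown. Hspb1 stood lowest of all members in mKO relative to control, and Hspa1a and its near copy Hspa1b stood highest among the HSP70 proteins. They are not simply the members with the largest differences. Hspb7, with a log2 fold change of -0.64 against 0.47 for Hspa1b, is not shown and is not among the genes with the core listed below. Each sequence is the 250 bases before the RefSeq transcription start in GRCm38.p6, written 5′ to 3′ on the strand of the gene. Capitals mark the core of a heat shock element, GAANNTTC. Hspb1 lies at chr5:135887669-135887918 on the plus strand, Hspa1a at chr17:34972157-34972406 and Hspa1b at chr17:34959239-34959488, both on the minus strand.
Hspb1: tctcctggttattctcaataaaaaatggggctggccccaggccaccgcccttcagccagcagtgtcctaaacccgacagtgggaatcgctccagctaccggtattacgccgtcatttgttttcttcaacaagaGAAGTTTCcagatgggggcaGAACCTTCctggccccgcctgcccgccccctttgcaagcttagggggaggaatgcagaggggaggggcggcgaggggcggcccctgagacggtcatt
Hspa1a: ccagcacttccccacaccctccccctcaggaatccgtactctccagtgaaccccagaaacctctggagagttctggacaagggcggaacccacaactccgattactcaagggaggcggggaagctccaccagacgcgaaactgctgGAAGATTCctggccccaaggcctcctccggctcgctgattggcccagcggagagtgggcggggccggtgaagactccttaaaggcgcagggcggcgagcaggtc
Hspa1b: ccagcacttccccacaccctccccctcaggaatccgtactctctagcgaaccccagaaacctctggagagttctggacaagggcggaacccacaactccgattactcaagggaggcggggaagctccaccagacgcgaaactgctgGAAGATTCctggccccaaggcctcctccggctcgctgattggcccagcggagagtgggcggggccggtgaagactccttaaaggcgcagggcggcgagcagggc
The Hspb1 promoter holds the core at -117 and at -97 relative to the start, and both Hspa1 promoters hold it at -104. The Hspa1a and Hspa1b sequences are identical at 247 of 250 positions. Promoters of 54 members were found in the RefSeq table, which covers 250 bases before to 50 bases after each start. The core, searched on both strands, occurred in 12 of these 54 genes (22.2%), against 9.04% of all 27025 genes in the table. The 12 genes were Dnaja1, Dnaja4, Dnajb6, Dnajc27, Hspa1a, Hspa1b, Hspb1, Hspb6, Hspb8, Hspd1, Hspe1 and Hsph1, of which 4 had log2 fold changes above 0 and 8 below 0, with a median of -0.19. A longer element, the core followed after 2 bases by a further GAA, contains the core by construction and was found in Dnajb6, Hspd1, Hspe1 and Hsph1, which is 7.41% of the members against 0.662% of all genes. The endoplasmic reticulum stress element, CCAAT and CCACG separated by 9 bases, was found in Dnajc3, Hsp90b1 and Hspa5, which is 5.56% against 0.137%. A match describes letters in this window and does not show that a factor binds there. Hspb1 and both Hspa1 genes hold the core, and its part in their values was not tested.

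The libraries held 158579864 to 180068483 counts, and the lowest count of any member in any library was 46. Sting1, the targeted gene, had 25.1, 31.4 and 27.1 CPM (a count relative to the TMM-scaled total of its library) in control pools 1 to 3 and 22.7, 21.4 and 28.7 CPM in mKO pools 1 to 3, and the groups overlapped. A count over the whole gene and all cells does not check a deletion in myeloid cells. Lyz2, whose locus carries Cre in mKO mice only, had 1430, 1759 and 1885 CPM in control and 643, 1149 and 1153 CPM in mKO. The defining markers of vein wall and clot (endothelium, smooth muscle, neutrophils, platelets and red cells) were present in all 6 libraries. Summed over 9 markers of skeletal muscle, the libraries had 3.67, 5.72 and 59.9 CPM in control and 29.8, 4.40 and 212 CPM in mKO. Control pool 3 and mKO pool 3 were the richest in these transcripts. Pool 3 of mKO also had 3.75 CPM summed over 8 sympathetic neuron markers, while the remaining libraries had 127 to 342 CPM.

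The summed level of the family overlapped between the groups. Of all 71 members Hspb1 had the lowest log2 fold change, -0.91, and the pseudogene Dnajc19-ps, which rests on 1 library, had the highest, 3.15, followed by Hspa1a at 0.71. Summed over the 71 members, control pools had 5432, 5832 and 4751 CPM and mKO pools had 5116, 5246 and 5441 CPM. All 71 members passed the filter on low counts, and none passed an adjusted p of 0.05 in the edgeR quasi-likelihood test of mKO over control; 0% of all 16523 genes tested did. The smallest adjusted p of a member was 0.221 (Hspb1), and that of any gene was 0.134. At an unadjusted p under 0.05, edgeR placed 3 members higher in mKO, where 5.6% of all genes were, and 5 lower, where 6.26% of all genes were. All pools of mKO lay above all pools of control for 3 members (8.76% of all genes) and below them for 7 members (9.39% of all genes). The shares of the 71, 4.23% and 7.04% by p and 4.23% and 9.86% by lack of overlap, were close to or under those backgrounds. DESeq2 called 2 of 70 members with an adjusted p, Hspb1 and Hspb7, both lower in mKO, which is 2.86%, where it called 2.79% of 16509 genes. The median log2 fold change was -0.04 over the members and -0.03 over all genes, with 29 members above 0 and 42 below. A log2 fold change within 0.25 of 0 was found for 50 members (70.4%, against 60.2% of all genes), and one over 0.5 in size for 9 members (12.7%, against 14.6%). Members were also measured a little more tightly than other genes: the median SE was 0.15 against 0.18, and the median coefficient of variation was 12.0% against 13.7% in control and 10.4% against 14.3% in mKO.

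**Figure D1:**
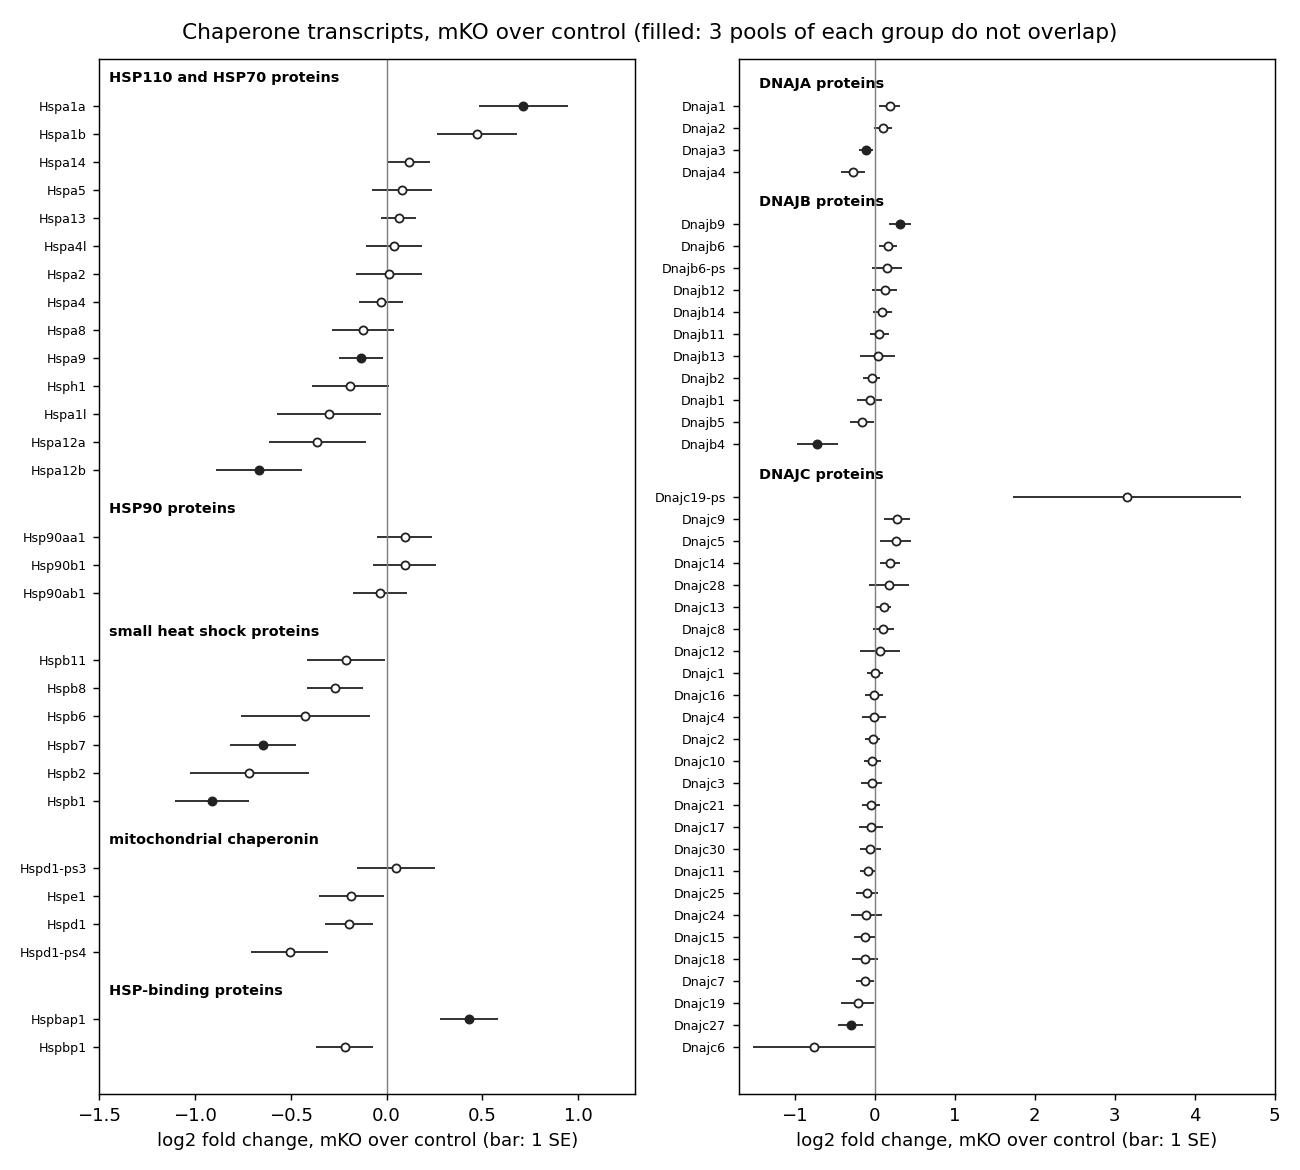
Log2 fold change of mKO over control for 70 of the 71 members by class, with bars of 1 SE and filled points where the 3 pools of each group do not overlap; the 2 panels have different x axes. All 6 genes in the class of small heat shock proteins, which counts the cilia protein Hspb11, lie below 0. Hspa1a and Hspa1b lie highest among the HSP70 proteins, and most DNAJ members lie within 0.25 of 0.

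Among the 14 HSP70 and HSP110 genes, 7 had log2 fold changes above 0 and 7 below, and the stress-inducible pair stood highest. Hspa1a (ENSMUSG00000091971) and Hspa1b (ENSMUSG00000090877), neighbours on chromosome 17, encode the stress-inducible cytosolic HSP70, which is low in unstressed cells. Hspa1a had 181, 138 and 100.2 CPM in control pools 1 to 3 and 246, 191 and 253 CPM in mKO pools 1 to 3. Every mKO pool was above every control pool. Hspa1b had 176, 144 and 101 CPM in control and 202, 174 and 207 CPM in mKO, where control pool 1 lay just above mKO pool 2. The log2 fold changes were 0.71 (SE 0.23) for Hspa1a, with an edgeR adjusted p of 0.330, and 0.47 (SE 0.21) for Hspa1b, with an edgeR adjusted p of 0.432. Neither passed the threshold in edgeR or, with adjusted p of 0.0593 and 0.25, in DESeq2. Without control pool 3 and mKO pool 3 the log2 fold changes were 0.45 and 0.23, and without control pool 3 alone 0.52 and 0.28. The copies share 46.0% and 40.5% of their 150-base stretches, so reads could be split between them and each value alone is uncertain. Reads that match both copies may also have been left out, as the rule for such reads was not given. Otherwise the sum of both copies is the same however reads were split between them. It was 357, 282 and 201 CPM in control and 448, 364 and 460.3 CPM in mKO. The mean sum over control pools was 280.3 ± 78.0 CPM, and over mKO pools 424.2 ± 52.1 CPM (SD, n = 3 each), a ratio of 1.51. The exact permutation test (two-sided) gave p = 0.1, the smallest that 3 against 3 allows.

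Hspa8, the constitutive HSP70 that also uncoats clathrin vesicles, did not share this pattern. It had 1147, 1160 and 892 CPM in control and 941, 1006 and 990.4 CPM in mKO, with overlapping groups and a log2 fold change of -0.12 (SE 0.16). The ratio of the inducible pair to Hspa8 within each library was 0.311, 0.243 and 0.225 in control and 0.476, 0.362 and 0.465 in mKO, without overlap. This ratio was 1 of 4 chosen after the values were seen, and its exact two-sided permutation p of 0.1 became 0.133 after Benjamini-Hochberg adjustment over the 4. Hspa5, the HSP70 of the endoplasmic reticulum, had 468, 495 and 376 CPM in control and 439, 499 and 479 CPM in mKO (log2 fold change 0.08, SE 0.16). Hspa9, the mitochondrial HSP70, had 134, 145 and 141 CPM in control and 120.4, 131 and 131 CPM in mKO. All control pools of Hspa9 were above all mKO pools, by a log2 fold change of -0.13 (SE 0.11) with an edgeR adjusted p of 0.630.

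Hspa12b, a distant HSP70 relative expressed mainly in endothelium, had 7.51, 8.02 and 6.33 CPM in control and 5.24, 3.13 and 5.42 CPM in mKO, again with all control pools higher. Its log2 fold change was -0.67 (SE 0.23) with an edgeR adjusted p of 0.345. The 8 endothelium markers summed to 767, 903 and 779.8 CPM in control and 569, 701 and 720.3 CPM in mKO, also without overlap, and their part in the Hspa12b value was not tested. Its relative Hspa12a had 4.99, 6.12 and 7.03 CPM in control and 4.25, 6.47 and 3.39 CPM in mKO, with overlap and a log2 fold change of -0.36, which was -0.05 without control pool 3 and mKO pool 3. Hsph1, the stress-inducible HSP110 exchange factor, had 51.3, 66.6 and 41.2 CPM in control and 39.4, 45.0 and 55.3 CPM in mKO (log2 fold change -0.19, SE 0.20), and its constitutive relative Hspa4 had 83.0, 87.7 and 73.2 CPM and 77.2, 79.1 and 82.8 CPM. Without control pool 2 the Hsph1 value was 0.0095, and without control pool 3 and mKO pool 3 it was -0.48. The ratio of Hsph1 to Hspa4 overlapped between groups (exact two-sided permutation p = 0.5). Among the other members of the class, Hspa2, Hspa4l, Hspa13, Hspa14 and Hspa1l all overlapped between groups, with log2 fold changes from -0.30 (Hspa1l, which shares 70.2% of its 150-base stretches with the gene model Gm10501) to 0.12 (Hspa14).

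**Figure D2:**
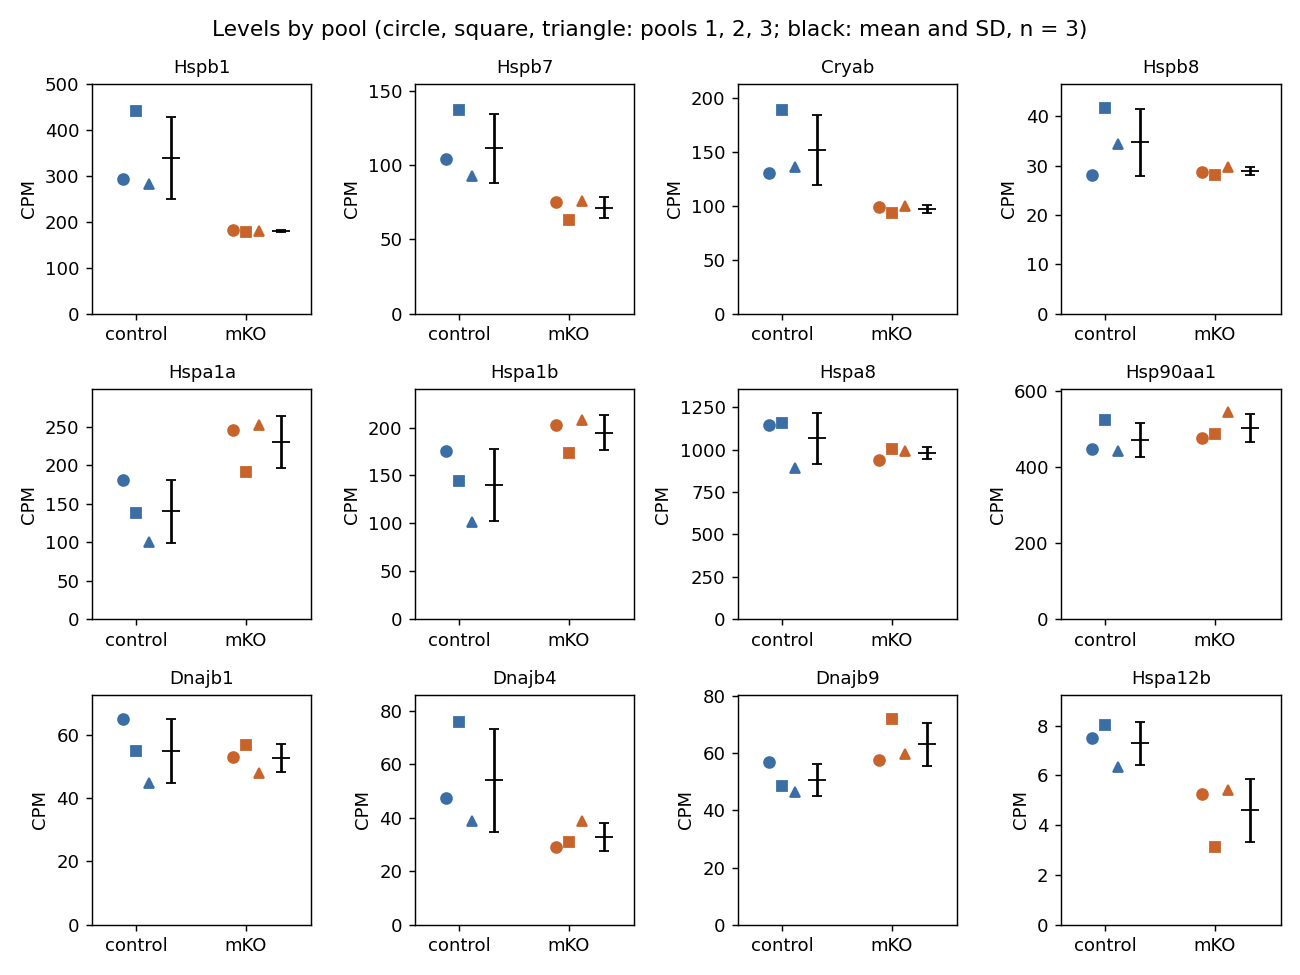
CPM of 11 members and of Cryab in each of the 3 control and 3 mKO pools, with the mean and SD in black; every y axis starts at 0. Hspb1, Hspb7 and Cryab are lower in every mKO pool than in every control pool, Hspa1a is higher in every mKO pool, and Hspa8, Hsp90aa1 and Dnajb1 overlap.

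All 3 HSP90 genes overlapped between the groups. Hsp90ab1, the constitutive cytosolic form, had 532, 597 and 522 CPM in control and 530.0, 507 and 576 CPM in mKO (log2 fold change -0.03, SE 0.14). Hsp90aa1, the inducible cytosolic form, had 449, 524 and 443 CPM in control and 479, 488 and 545 CPM in mKO (log2 fold change 0.09, SE 0.15). Reads of Hsp90aa1 may be split with the pseudogene Gm12346, which shares 28.5% of its 150-base stretches, and the sum of both had an exact two-sided permutation p of 0.4. The form of the endoplasmic reticulum, Hsp90b1, had 296, 369 and 272 CPM in control and 325, 311 and 365 CPM in mKO (log2 fold change 0.09, SE 0.16). Within each library the ratio of Hsp90aa1 to Hsp90ab1 was 0.844, 0.878 and 0.848 in control and 0.903, 0.962 and 0.947 in mKO. It was higher in every mKO pool by 0.13 on the log2 scale, with an exact two-sided permutation p of 0.1 and an adjusted value of 0.133 over the 4 ratios. The inducible member made up more of its pair in every mKO pool than in any control pool for HSP70 and, by a smaller margin, for HSP90. For the pair Hsph1 and Hspa4 the ratio overlapped between groups, and its log2 difference of mKO from control was -0.15.

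**Figure D3:**
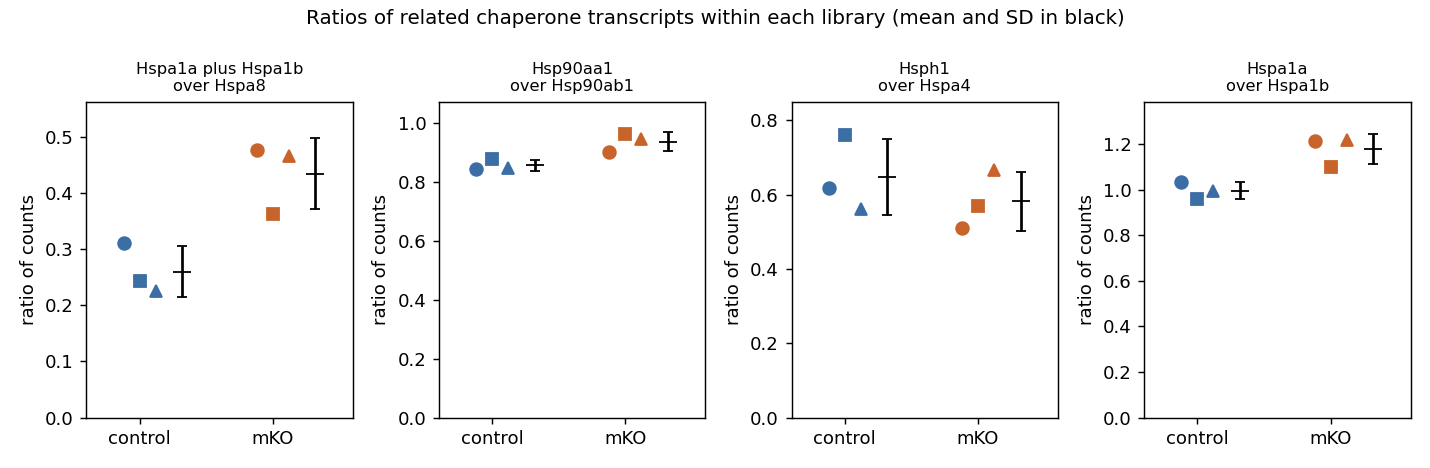
Ratios of counts between related chaperones within each library, for 3 control and 3 mKO pools with the mean and SD in black; every y axis starts at 0. The pools of both groups do not overlap for Hspa1a plus Hspa1b over Hspa8 (0.225 to 0.311 in control, 0.362 to 0.476 in mKO), for Hsp90aa1 over Hsp90ab1 and for Hspa1a over Hspa1b, and overlap for Hsph1 over Hspa4.

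The class of small heat shock proteins, which by symbol counts Hspb11, stood lower in mKO. All 6 log2 fold changes were below 0, with a median of -0.53, the lowest of the 8 classes, and 2 genes (Hspb1 and Hspb7) were lower without overlap. The summed level of the 6 genes was 501 ± 122 CPM over the control pools and 292 ± 13.6 CPM over the mKO pools (SD, n = 3 each). The ratio was 0.583, with an exact two-sided permutation p of 0.1. Hspb1 (ENSMUSG00000004951, chromosome 5), also called Hsp25 in the mouse, caps actin filaments and is phosphorylated under stress. It had 293, 442 and 282 CPM in control pools 1 to 3 and 183, 177 and 181 CPM in mKO pools 1 to 3. All mKO pools lay close together, below all control pools, and control pool 2 stood highest. Mean levels were 339 ± 89.4 CPM over control pools and 180.3 ± 2.83 CPM over mKO pools (SD, n = 3 each), and the coefficient of variation was 26.4% in control and 1.6% in mKO. Hspb1 had a log2 fold change of -0.91 (SE 0.20), a level 1.88 times lower in mKO. The adjusted p was 0.221 by edgeR and 0.000482 by DESeq2. Without control pool 2 the log2 fold change was -0.67 by edgeR, and DESeq2 called Hspb1 after leaving out each library in turn. The processed pseudogene Hsp25-ps1 shares 39.1% of the 150-base stretches of Hspb1, and it had 22.9, 30.1 and 20.2 CPM in control and 14.0, 13.5 and 12.9 CPM in mKO. Adding it to Hspb1 gave 363.6 ± 94.5 CPM over control pools and 193.8 ± 3.09 CPM over mKO pools (SD, n = 3 each), so the direction does not depend on how reads were shared between both.

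Hspb7 (chromosome 4), which is found mainly in heart and other muscle and binds filamin C, had 104, 137 and 92.7 CPM in control and 75.1, 63.1 and 75.9 CPM in mKO, again without overlap. Its log2 fold change was -0.64 (SE 0.17), at an adjusted p of 0.275 by edgeR and 0.0223 by DESeq2. The DESeq2 call of Hspb7 was lost without control pool 2 or without any of the 3 mKO pools (adjusted p 0.0903 without control pool 2 and 0.0584, 0.115 and 0.0803 without mKO pools 1, 2 and 3). Cryab, the alpha-B crystallin that belongs to the same protein family but not to the symbol rule, had 130.3, 189 and 136 CPM in control and 98.6, 93.0 and 99.96 CPM in mKO. It too was lower in every mKO pool, with a log2 fold change of -0.64 (SE 0.17) and an adjusted p of 0.263 by edgeR and 0.0132 by DESeq2. Hspb2, the neighbour of Cryab on chromosome 9, had 2.65, 3.41 and 1.67 CPM in control and 1.61, 1.17 and 1.91 CPM in mKO, with overlap (log2 fold change -0.72, SE 0.31). Hspb6, a regulator of smooth muscle relaxation, had 8.03, 13.5 and 7.52 CPM in control and 7.44, 4.49 and 9.72 CPM in mKO, and also overlapped. Without control pool 2 the log2 fold change was -0.46 for Hspb2 and -0.11 for Hspb6, and without control pool 3 and mKO pool 3 it was -1.12 and -0.85. Hspb8, the partner of Bag3 in the autophagy of damaged muscle proteins, had 28.1, 41.7 and 34.5 CPM in control and 28.6, 28.2 and 29.7 CPM in mKO. Only control pools 2 and 3 of Hspb8 stood above the mKO range, and its log2 fold change of -0.27 was -0.12 without control pool 2. The cilia protein Hspb11 had the value nearest to 0 in the class (log2 fold change -0.21, SE 0.20).

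Markers of vessel wall cells and of adipocytes also stood lower in mKO on average. The 8 smooth muscle markers summed to 1469, 3102 and 1234 CPM in control and 962, 688 and 1510 CPM in mKO. All 8 had log2 fold changes below 0, with a median of -0.80. Their sums overlapped, with mKO pool 3 above control pools 1 and 3. Hspb1 was at 181 CPM in mKO pool 3, 293 CPM in control pool 1 and 282 CPM in control pool 3. The smooth muscle sum of mKO pool 3 was close to that of control pool 1. That mKO pool was also the richest in skeletal muscle markers, and the part of skeletal muscle in its smooth muscle sum was not tested. Control pool 2 had both the highest smooth muscle sum and the highest Hspb1, Hspb7, Cryab, Hspb6 and Hspb8. Endothelium markers, also 8 of 8 below 0 (median -0.28), gave the sums printed above for Hspa12b, which do not overlap. The 5 adipocyte markers, 5 of 5 below 0 (median -0.58), summed to 654, 766 and 630.3 CPM in control and 510.3, 341 and 496 CPM in mKO, without overlap. Brown adipocyte markers, 3 of 3 below 0 (median -1.66), summed to 7.06, 5.97 and 9.40 CPM in control and 2.61, 2.31 and 2.31 CPM in mKO, also without overlap. Fibroblast markers summed to 929, 1189 and 586 CPM in control and 898, 480.2 and 892 CPM in mKO, with overlap. The 9 skeletal muscle markers were all higher in mKO on average (median log2 fold change 1.83). Their sums overlapped between groups (exact two-sided permutation p = 0.6), and mKO pool 3 had the highest sum, 212 CPM. Blood cell markers went both ways, and the sums of each list overlapped between groups. Above 0 were 8 of 8 monocyte and macrophage markers (median 0.20), 6 of 8 neutrophil markers (median 0.39) and 7 of 7 red cell markers (median 0.26). All 6 platelet markers were below 0 (median -0.38). The part of all these cell types was not tested, either in the small heat shock protein values or in those of members higher in mKO, such as Hspa1a.

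**Figure D4:**
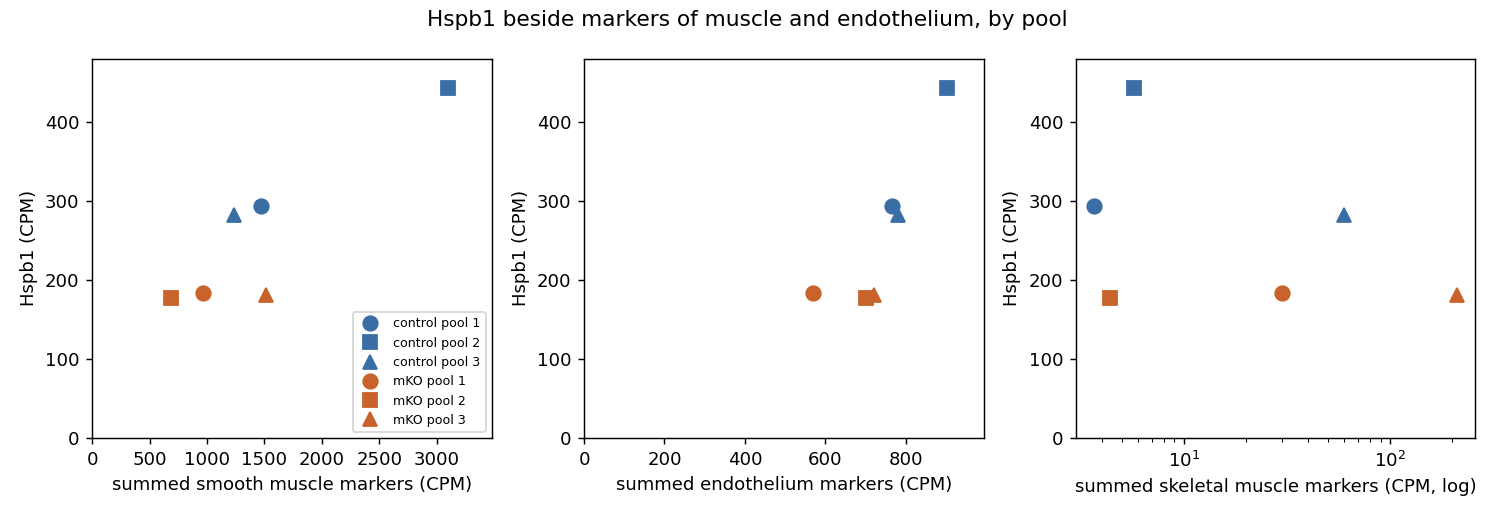
Hspb1 CPM of each pool against the summed CPM of smooth muscle, endothelium and skeletal muscle markers; the third x axis is logarithmic and the others start at 0. The mKO pools lie between 177 and 183 CPM of Hspb1, and their endothelium sums all lie below those of the control pools. The smooth muscle sum of mKO pool 3 is close to that of control pool 1. The part of these cell types in the Hspb1 values was not tested.

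Mitochondrial chaperones had small differences. Of 8 listed, 2 (Hspa9 and Dnaja3) were lower in every mKO pool, as were 9.39% of all genes. The 8 are a list chosen with earlier results known, which need not hold every member that works in mitochondria. All 8 had log2 fold changes below 0, from -0.21 to -0.05, with a median of -0.13, and none passed the threshold. They summed to 327 ± 21.2 CPM over the control pools and 295 ± 6.51 CPM over the mKO pools (SD, n = 3 each), with an exact two-sided permutation p of 0.1. Hspd1, the HSP60 subunit of the chaperonin, had 85.5, 92.0 and 73.0 CPM in control and 70.2, 72.5 and 75.8 CPM in mKO (log2 fold change -0.20, SE 0.12). Its neighbour on chromosome 1 and lid of the same chamber, Hspe1, had 35.7, 46.0 and 31.0 CPM in control and 36.5, 28.2 and 34.5 CPM in mKO (log2 fold change -0.18, SE 0.17). Both overlapped between groups, and without control pool 2 the log2 fold changes were -0.12 for Hspd1 and -0.012 for Hspe1. Dnaja3, the J protein of mitochondrial HSP70, had 17.4, 16.3 and 15.6 CPM in control and 15.4, 15.0 and 15.3 CPM in mKO, and its groups did not overlap although the log2 fold change was only -0.11 (SE 0.09). The pseudogene Hspd1-ps4 was lower in mKO by a larger log2 fold change, -0.51 (SE 0.20), at 8.94, 12.7 and 12.6 CPM and 6.21, 9.56 and 8.30 CPM, with overlap and an edgeR adjusted p of 0.394. Hspd1-ps3, a copy that shares 26.8% of its stretches with Hspd1, had a log2 fold change of 0.05 (SE 0.21).

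Members of the endoplasmic reticulum lumen leaned the other way, by little. Of 8, 6 had log2 fold changes above 0, with a median of 0.06 and a highest value of 0.32 for Dnajb9. This J protein of Hspa5, a target of the unfolded protein response, had 57.0, 48.6 and 46.6 CPM in control and 57.7, 71.9 and 59.8 CPM in mKO. All mKO pools of Dnajb9 were above all control pools, with a log2 fold change of 0.32 (SE 0.14) and an edgeR adjusted p of 0.419. Dnajb11, a further luminal J protein, had 49.4, 50.7 and 43.2 CPM in control and 53.4, 44.7 and 50.7 CPM in mKO, and Dnajc3, which is made in the stress response and acts on Hspa5, had 56.3, 66.7 and 52.2 CPM and 56.9, 53.7 and 59.8 CPM. Neither separated the groups. The luminal members summed to 1004 ± 126 CPM over the control pools and 1063 ± 40.3 CPM over the mKO pools (SD, n = 3 each), with an exact two-sided permutation p of 0.6.

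The DNAJB class had a median log2 fold change of 0.05 over 11 genes, with 7 above 0 and 4 below. Dnajb1, the J protein that HSF1 induces together with Hspa1a, had 65.1, 54.9 and 44.8 CPM in control and 53.2, 56.7 and 48.0 CPM in mKO. Its groups overlapped, with a log2 fold change of -0.06 (SE 0.15), where both Hspa1 genes stood above 0. Dnajb4, a close relative of Dnajb1, had 47.3, 75.8 and 38.8 CPM in control and 29.0, 30.7 and 38.7 CPM in mKO. Control pool 2 was far above the rest, and the groups failed to overlap by under 0.1 CPM. Dnajb4 had a log2 fold change of -0.72 (SE 0.25) with an edgeR adjusted p of 0.364, and of -0.39 without control pool 2. That pool also had the highest smooth muscle sum, and the part of smooth muscle in the Dnajb4 value was not tested. Dnajb6, which keeps aggregation-prone proteins soluble, had 78.1, 71.2 and 77.5 CPM in control and 77.3, 89.996 and 86.9 CPM in mKO (log2 fold change 0.17, SE 0.12), with overlap.

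Among the 4 DNAJA proteins, 2 were above 0 and 2 below. Dnaja1, with the highest CPM of them and a cytosolic partner of Hspa8, had 102, 103 and 83.1 CPM in control and 102, 110.4 and 116 CPM in mKO (log2 fold change 0.19, SE 0.13), with overlap. The log2 fold change of Dnaja1 was 0.05 without control pool 3 and mKO pool 3. Dnaja4 had 7.43, 8.85 and 6.37 CPM and 6.02, 6.12 and 6.60 CPM (log2 fold change -0.27, SE 0.15), and 40.7% of its 150-base stretches lie in the gene model of Wdr61 as well.

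DNAJC proteins, which carry a J domain in otherwise unrelated proteins, were 26 genes with a median log2 fold change of -0.04, 9 above 0 and 17 below. Dnajc5, the cysteine string protein that guards exocytosis, had 169, 117 and 148 CPM in control and 141, 208 and 172 CPM in mKO (log2 fold change 0.26, SE 0.20), with overlap. That value was 0.11 without mKO pool 2 and 0.13 without control pool 2. Dnajc9, a histone chaperone, had 5.18, 6.85 and 5.25 CPM and 7.81, 6.35 and 6.73 CPM (log2 fold change 0.27, SE 0.16), and Dnajc14 had 69.7, 55.2 and 60.8 CPM and 69.99, 76.0 and 66.0 CPM (log2 fold change 0.19, SE 0.13). Dnajc27, which joins a J domain to a small GTPase, was the DNAJC gene whose groups did not overlap, with 4.07, 4.20 and 4.95 CPM in control and 3.40, 3.96 and 3.38 CPM in mKO (log2 fold change -0.30, SE 0.16, edgeR adjusted p 0.481), and its log2 fold change was -0.17 without control pool 3 and mKO pool 3. Dnajc18 lies on chromosome 18 with 2 protein-coding genes between it and Sting1, and had 6.72, 9.59 and 7.91 CPM in control and 7.25, 6.73 and 8.26 CPM in mKO (log2 fold change -0.12, SE 0.16).

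The pseudogene Dnajc19-ps rested on 1 library, and the gene Dnajc6 had 1 low library. Dnajc19-ps had 0.773, 0.878 and 0.988 CPM in control and 1.24, 21.5 and 0.778 CPM in mKO, so its log2 fold change of 3.15 (SE 1.42) came from mKO pool 2 and was 0.20 without it. Its parent Dnajc19, an import motor subunit of mitochondria, was not high in that pool (7.94, 10.7 and 9.64 CPM in control and 10.4, 6.25 and 7.73 CPM in mKO). Dnajc6, the auxilin of neurons that strips clathrin from vesicles with Hspa8, had 1.61, 2.38 and 3.63 CPM in control and 1.62, 2.62 and 0.269 CPM in mKO. The low library is mKO pool 3, the one with few sympathetic neuron transcripts, and the part of these neurons in the value was not tested.

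Both binding proteins had levels from 9.55 to 17.3 CPM. Hspbap1, a protein that binds Hspb1, had 13.1, 9.55 and 12.5 CPM in control and 13.9, 17.3 and 16.2 CPM in mKO. Every mKO pool was above every control pool, opposite to Hspb1, with a log2 fold change of 0.43 (SE 0.15) and an edgeR adjusted p of 0.358. Hspbp1, an exchange factor for HSP70, had 12.4, 17.2 and 16.1 CPM in control and 14.7, 11.8 and 12.8 CPM in mKO (log2 fold change -0.22, SE 0.15), with overlap.

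The 11 members that HSF1 induces in heat shock pointed in both directions. Their median log2 fold change was -0.06, with 4 above 0 (Hspa1a, Hspa1b, Dnaja1 and Hsp90aa1) and 7 below 0, and they ranged from -0.91 for Hspb1 to 0.71 for Hspa1a. Summed, they stood at 3033 ± 384 CPM over the control pools and 2940 ± 123 CPM over the mKO pools (SD, n = 3 each), with an exact two-sided permutation p of 0.7. Among 4 heat shock factors and regulators none passed the threshold. Hsf1, the factor itself, had 15.8, 17.7 and 17.7 CPM in control and 17.2, 16.1 and 18.2 CPM in mKO (log2 fold change 0.01, SE 0.10), and Hsbp1, which binds HSF1, had a log2 fold change of -0.16 (SE 0.13).

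Partner proteins outside the symbol rule had small differences, and none of their genes passed the edgeR threshold. Of 12 exchange factors and adaptors of HSP70, 6 were above 0 and 6 below. Bag3, the partner of Hspb8, had 36.4, 41.3 and 36.7 CPM in control and 29.0, 34.8 and 31.7 CPM in mKO, lower in every mKO pool (log2 fold change -0.26, SE 0.11, edgeR adjusted p 0.416). St13, an HSP70-interacting adaptor, had 65.5, 65.0 and 56.8 CPM in control and 76.1, 69.6 and 77.2 CPM in mKO, higher in every mKO pool (log2 fold change 0.25, SE 0.11). Of 13 HSP90 cochaperones, 7 were above 0 and 6 below. Ptges3, which stabilises the closed form of HSP90, was higher in every mKO pool, with 63.1, 68.0 and 61.5 CPM in control and 75.2, 78.1 and 80.5 CPM in mKO (log2 fold change 0.28, SE 0.10, edgeR adjusted p 0.371).

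The cytosolic chaperonin, which folds actin and tubulin, and its prefoldin partner had a median log2 fold change of -0.11 over 14 genes, with 10 below 0. The subunit Cct6a had 94.4, 109 and 98.6 CPM in control and 91.2, 81.5 and 89.6 CPM in mKO, without overlap (log2 fold change -0.20, SE 0.12). Of 21 genes of the unfolded protein response of the endoplasmic reticulum, 19 had log2 fold changes above 0 and 2 below, with a median of 0.10, and none had an unadjusted p under 0.05 in edgeR. They summed to 2573 ± 111 CPM over the control pools and 2818 ± 106 CPM over the mKO pools (SD, n = 3 each), with an exact two-sided permutation p of 0.1. Ppp1r15a, which reverses the translational block of this response, had 149, 99.7 and 140.0 CPM in control and 139, 191 and 179 CPM in mKO (log2 fold change 0.39, SE 0.20). Its pools overlapped, as did those of Ddit3 (log2 fold change 0.36, SE 0.18) and Trib3 (log2 fold change 0.38, SE 0.20). Among 7 genes of mitochondrial protein quality control the median was -0.01. Hscb, the J protein of iron-sulfur cluster assembly, was higher in every mKO pool, with 6.31, 6.45 and 5.93 CPM in control and 10.1, 8.60 and 6.78 CPM in mKO (log2 fold change 0.44, SE 0.16, edgeR adjusted p 0.365).

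Per length, the order of the abundant members differed between groups at its top. Hspb1 was the most abundant member in control, at 329 CPM per kilobase of exon, followed by Hspa8 at 248, Hsp90ab1 at 184, Hsp90aa1 at 120.1, Hspa5 at 106 and Hsp90b1 at 77.5. In mKO, Hspa8 stood first at 228 CPM per kilobase, and Hsp90ab1 (179) and Hspb1 (175) were nearly equal. Hspa1b and Hspa1a followed at 50.04 and 47.2 CPM per kilobase in control and 69.4 and 77.5 in mKO. Hspb7 came next in control, at 40.3 CPM per kilobase, and had 25.8 in mKO. Every other member was at or under 32.5 CPM per kilobase in control, the level of Hspa9, and the lowest was Dnajc12 at 0.307.

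**Figure D5:**
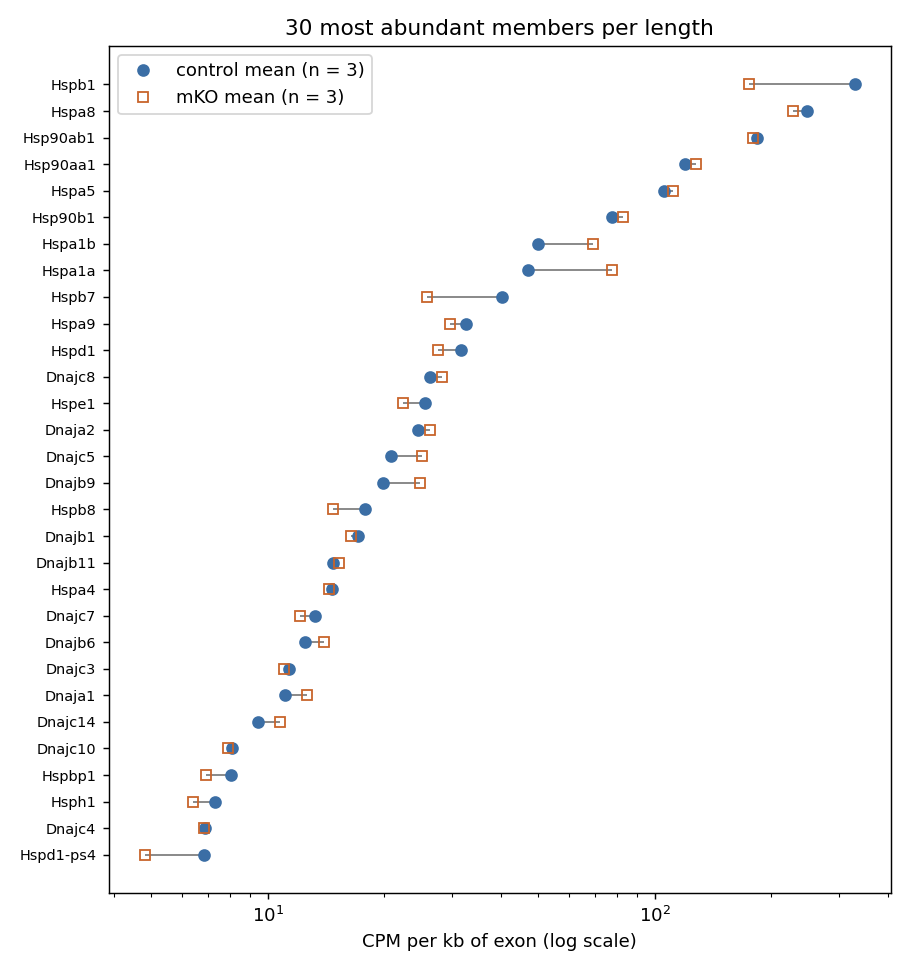
Mean level of the 30 most abundant members in CPM per kilobase of exon on a log axis, for control (filled circles) and mKO (open squares), each the mean of 3 pools. Hspb1 is the top member in control at 329 and stands at 175 in mKO, while most other members have nearly the same level in both groups.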

How the data were processed

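Per the labels, each sample has 1 table, and the authors deposited it as raw counts of reads per gene. The submitters' processing notes list featureCounts 2.0.1, HISAT2 2.1.0, Trim Galore 0.4.0, FastQC 0.11.8 and the build GRCm39 without saying what each did. The strand setting and the rule for multi-mapping reads were not given in the sources used here. Poly(A) RNA was sequenced as paired-end reads of 150 bases, per the labels' protocols. Counts were tested with edgeR 4.0.16 (R 4.3.3; TMM, default expression filter, robust quasi-likelihood F-test) over 16523 genes with Benjamini-Hochberg adjustment, a threshold of 0.05 and no replicate block. CPM uses TMM-scaled library sizes. DESeq2 1.42.0 and voom in limma 3.58.1 were alternatives, and the fit was tested on simulated data. Single values had an exact two-sided permutation test over samples. GENCODE models of GRCm38 gave exon length, chromosome, gene order and the 150-base stretches a gene shares with another. The replicate numbers did not pair the samples, and no 2 libraries agreed within sampling noise. Members, gene lists and marker lists were chosen with earlier results of these data known. Named were the targeted genes, the 24 members of lowest unadjusted p, a core set, the most abundant member of each class, and up to 3 genes by p from each partner list. Hspa4, Dnajb11, Dnajc3, Dnajc6, Dnajc12, Dnajc18, Dnajc19, Hspb11, Hsf1, the remaining HSP70 genes and the copies were named after their values were seen. A result for 1 member is not reported here.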

Additional observations from a re-analysis of the deposited data

How the results depend on the processing

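Across 14 alternatives, 27 of 33 named members kept the direction of their log2 fold change. Hspb1 ranged from -1.03 to -0.67, Hspb7 from -0.81 to -0.47 and Hspa1a from 0.45 to 0.95. In edgeR and voom no member was called under any alternative. DESeq2 called 2, Hspb1 and Hspb7, against none in edgeR. It had 10 of the 71 members at an unadjusted p under 0.05, beside 2316 of all 16523 genes. Leaving out each library in DESeq2, an alternative chosen after seeing the data, gave 1 to 4 called members, beside 242 to 763 of all genes. Leaving out each library in edgeR gave 5 to 11 members at an unadjusted p under 0.05, against 8 with all libraries, and the lowest count was without control pool 2; over all genes these fits gave 1090 to 2370, against 1960. Members whose groups did not overlap numbered 10 with all libraries and 15 to 19 with 1 left out, where 22.4% to 36.3% of all genes did not overlap. They numbered 26 without control pool 3 and mKO pool 3, chosen after seeing the data, when 38.7% of all genes did not overlap. Members near 0 changed sign. When 1 library was left out, Hsp90ab1 ranged from -0.086 to 0.028, Hspa5 from -0.028 to 0.16, Hsph1 from -0.34 to 0.0095 and Dnajb1 from -0.19 to 0.078. Without control pool 3 and mKO pool 3, Hspa5 was at -0.038, Hsp90aa1 at -0.0096 and Hsp90b1 at -0.067. The cause was not tested. With the replicate number as a block (replicate block), 0 members passed, and 7 had an unadjusted p under 0.05, beside 1299 of all 16523 genes. Hspb1 had a log2 fold change of -0.88 with an adjusted p of 0.502 in that edgeR fit. Same-numbered pools had correlations of -0.136, -0.152 and -0.267 in their deviations from the group means, so the numbers did not pair them. Counting error is small for members with high counts, for which the number of pools limits precision. It is larger for those with few counts, such as Dnajc6 with 46 counts in mKO pool 3.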
